A study of Mus musculus with 4 samples.

Results

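Adipocytes, the fat-storing cells of adipose tissue, were represented by 125 of the 37959 barcoded nuclei that passed the limits on depth and mitochondrial transcripts in 4 single-nucleus RNA libraries from mouse kidney. They were chosen by their own transcripts: a barcode was a member when it held at least 1 unique molecular identifier (UMI, 1 counted RNA molecule) of 2 or more of Adipoq, Plin1, Cidec, Lep and Cfd. It also had to hold at most 15000 UMIs, at most 10% of them mitochondrial, and at most 4 UMIs in all of the proximal tubule genes Slc5a12, Slc13a3, Slc7a13 and Slc22a6. All kidneys came from C57BL/6 mice at postnatal week 22. The untreated group has 2 libraries, and the other 2 come from kidneys treated with losartan, which blocks the angiotensin II type 1 receptor. How much losartan was given, by which route and for how long is not given here by any label, and neither are sex and hour of collection. No label says that the replicates are separate animals, so p-values measure only how these samples spread, which may be technical. Kidney is the tissue on every label and fat is on none, so where these nuclei lay in or beside the organ cannot be read from the data.

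White adipocytes store triglyceride in 1 large droplet coated with perilipin and CIDE proteins, take up fatty acids released by lipoprotein lipase, and release them again by lipolysis under adrenergic control, with insulin as the brake. The nuclear receptor encoded by Pparg and the C/EBP factors switch on most genes of this programme. Brown and beige adipocytes add mitochondria that burn fuel for heat, with Ucp1 as the uncoupling protein, and fat around the mouse kidney is known to hold both forms.

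Nearly all members came from replicate 2 of each group. There were 74 in untreated library 2 (0.776% of its 9540 barcodes, 95% Clopper-Pearson interval 0.61 to 0.973) and 49 in losartan library 2 (0.497% of 9851, interval 0.368 to 0.657). Untreated library 1 held 2 (0.0219% of 9135, interval 0.00265 to 0.0791). Losartan library 1 held 0 of 9433, and a count of 0 there allows up to 0.0318%. The replicate 2 libraries of both groups were thus high, both replicate 1 libraries were at or near 0, and the groups overlapped. The mean share was 0.399 ± 0.533% (SD, n = 2) in the untreated group and 0.249 ± 0.352% (SD, n = 2) in the losartan group, a difference of -0.15 percentage points (exact two-sided permutation test, p = 0.667, where 2 libraries against 2 cannot go below 0.33). Leaving out 1 library at a time moved that difference between -0.527 and 0.227, so its sign rests on single libraries. How much fat came with each piece of tissue is not recorded, and its part in these shares was not tested. Fewer adipocytes in the tissue and fewer of their nuclei recovered cannot be told apart here.

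Other cell types that could come with tissue at the kidney's edge were counted in the same way. Fibroblast-gated nuclei, with 2 or more of Pdgfra, Dcn, Lum, Col1a1 and Col1a2, made up 5.67% and 9.62% of untreated libraries 1 and 2, and 3.83% and 7% of losartan libraries 1 and 2. Both replicate 2 libraries were above their replicate 1 partner, which was also so for endothelium-gated nuclei (9.93% and 11.6% in untreated, 6.11% and 7.94% in losartan libraries) and for barcodes with lymphatic, Schwann or skeletal muscle markers. Mesothelium, the lining of the peritoneal cavity, was marked in 2, 7, 0 and 3 barcodes in the same order. The adrenal cortex, the gland on top of the kidney, was marked in 0, 0, 0 and 1.

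Depth did not set the members apart. Adipocyte nuclei held a median of 4002.5 UMIs and 2125.5 genes in untreated library 2 and of 3842 UMIs and 2022 genes in losartan library 2, where all barcodes under the limits held medians of 4125 and 3989 UMIs. Summed, they gave 330559 and 202319 UMIs, and levels below are UMIs per 1000000 UMIs of such a sum (CPM). Totals of the 4 libraries ran from 42290414 to 59078762 UMIs. Any pair of libraries shared 21 to 29 barcodes, of which 0 were members. Scrublet, which scores barcodes that look like a mix of cells, marked 2 of 2 members in untreated library 1, 10 of 74 in untreated library 2 and 4 of 49 in losartan library 2.

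The 5 genes that chose the members are described here and not tested. Plin1, the coat protein through which adrenergic signals open the droplet to lipases, was at 1265 CPM in untreated library 2 (72 of 74 nuclei with a UMI) and 1087 CPM in losartan library 2 (48 of 49). Cidec, which fuses droplets, was at 1358 and 1300 CPM. Cfd, the serine protease adipsin, was at 720 and 598 CPM. Adipoq, the secreted adiponectin, was at 221 CPM in 38 of 74 nuclei and 222 CPM in 17 of 49. Lep, the satiety hormone leptin, was scarcest, with 19 UMIs in 11 nuclei and 6 UMIs in 5 nuclei. In other nuclei these genes ranged from 0 to 4.09 CPM over the 4 libraries. Cfd was highest there, at 4.09 and 3.97 CPM in untreated and losartan library 2, against 0.0921 and 0.0229 CPM in the replicate 1 libraries. Free RNA can put such UMIs into any droplet. The 2 members of untreated library 1 held 27 UMIs of the 5 genes together.

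The threshold fell at a break in other adipocyte genes. Just outside it, 239 barcodes in untreated library 2 and 142 in losartan library 2 held exactly 1 of the 5 genes, in most cases Cfd (148 and 95). They had a median of 1 of 14 adipocyte markers that the rule did not use. Just inside, the 7 and 15 barcodes with exactly 2 genes had medians of 11 and 10 of those 14, and barcodes with all 5 had a median of 12 in both libraries. The limit on proximal tubule genes kept out 5, 1 and 3 further barcodes in untreated library 2, losartan library 1 and losartan library 2. The limit on UMIs kept out 1 and 4 in untreated and losartan library 2. Close to the tubule limit, 2 members in untreated library 2 and 13 in losartan library 2 held 3 or 4 UMIs of those genes. They had medians of 5.5 and 11 of the 14 other markers. The barcodes that the tubule limit kept out had medians of 9, 11 and 3 in the order given. The tubule limit thus did not fall at such a break.

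**Figure D1:**
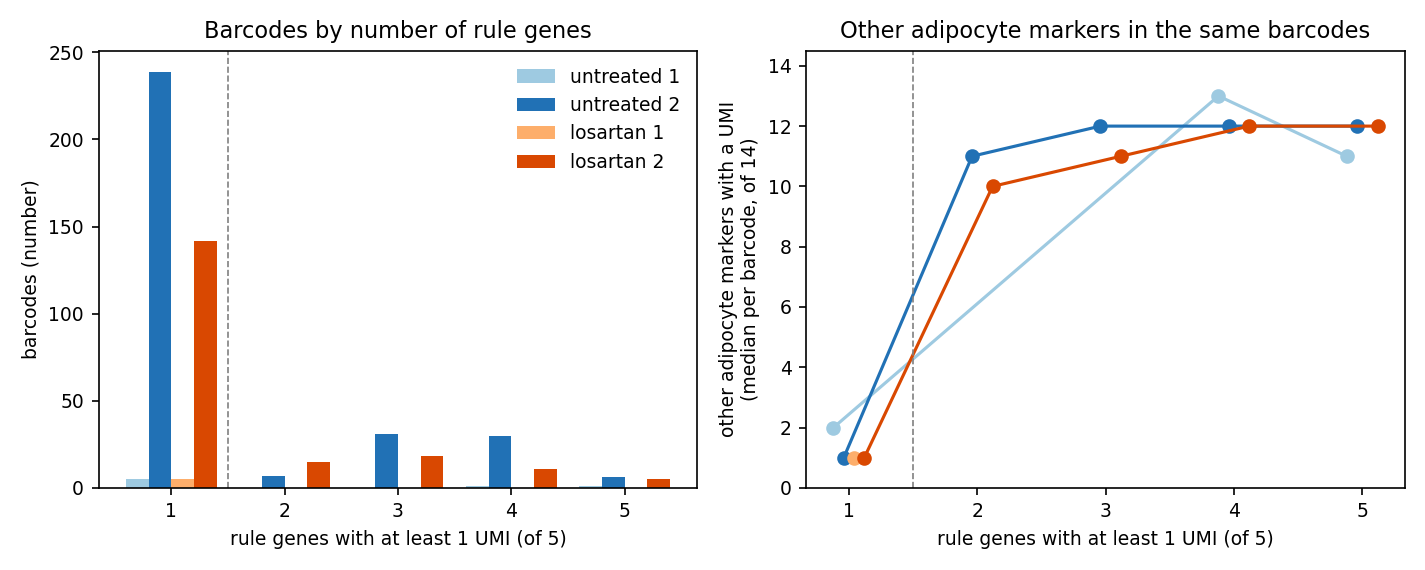
Left, the number of barcodes (vertical axis) that held 1 to 5 of the 5 rule genes (horizontal axis) in each library, with a dashed line at the threshold. Right, the median number of 14 other adipocyte markers with a UMI in the same barcodes, which stood at 1 or 2 left of the threshold and at 10 to 13 right of it.

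Promoter sequence is shown for the droplet genes that chose most members and for leptin, since all 3 windows hold the letters of a C/EBP site. RefSeq windows (GRCm38.p6, mm10) run from 250 bases before to 50 bases after a start site, and all 5 rule genes have at least 1. The motif TTGCNNAA was searched on both strands and found for 3 of the 5, Plin1, Cidec and Lep, where 10.8% of all 32851 windows hold it. The nuclear receptor half-site AGGTCA, searched on both strands, was found for 0 of the 5 and in 16.3% of all windows. Capitals mark the matches in the windows below, each on the minus strand for Plin1 (chr7:79732727-79733026) and Cidec (chr6:113434715-113435014, 1 of its 2 annotated starts) and on the plus strand for Lep (chr6:29059971-29060270).
Plin1: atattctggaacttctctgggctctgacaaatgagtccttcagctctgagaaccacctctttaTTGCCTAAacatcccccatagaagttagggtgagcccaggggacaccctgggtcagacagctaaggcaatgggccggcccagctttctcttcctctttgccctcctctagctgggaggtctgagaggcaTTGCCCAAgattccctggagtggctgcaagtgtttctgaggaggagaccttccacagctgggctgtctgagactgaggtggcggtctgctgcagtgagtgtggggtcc
Cidec: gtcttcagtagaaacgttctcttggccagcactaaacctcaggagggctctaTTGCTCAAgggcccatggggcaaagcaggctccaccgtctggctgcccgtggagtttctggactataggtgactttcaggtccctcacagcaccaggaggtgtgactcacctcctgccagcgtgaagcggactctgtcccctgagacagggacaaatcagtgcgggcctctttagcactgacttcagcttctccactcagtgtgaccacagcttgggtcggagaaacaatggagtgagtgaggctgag
Lep: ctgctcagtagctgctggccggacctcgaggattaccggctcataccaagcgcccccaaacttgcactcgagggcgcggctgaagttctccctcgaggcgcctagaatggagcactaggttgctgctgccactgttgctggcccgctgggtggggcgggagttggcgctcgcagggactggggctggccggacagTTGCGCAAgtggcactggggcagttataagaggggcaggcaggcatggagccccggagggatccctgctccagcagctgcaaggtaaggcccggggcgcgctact
Plin1 holds 2 matches, which begin 187 and 58 bases before its start. The Cidec match begins 198 bases before, and the Lep match, which reads the same on both strands, 55 bases before. A match describes letters only. Of the 15 genes named further down as highest above other nuclei, 6 had a window that was searched, of which 2 (Cdh9 and Ctcflos) hold the C/EBP letters. For the rest, Cidea among them, no window was searched, which need not mean that none exists.

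The name adipocyte was checked against markers that the rule did not use. All 14 had UMIs in both replicate 2 libraries, and 13 of 14 in the 2 nuclei of untreated library 1, where Cebpa was at 0. Their summed level was 16154 CPM in untreated library 2 and 18189 CPM in losartan library 2, against 456 and 460 CPM in other nuclei. Pparg was at 1767 and 2768 CPM with a UMI in 70 of 74 and 48 of 49 nuclei. The same gene was found in 6.33% and 4.51% of other nuclei. The macrophage list (6 genes) summed to 27.2 and 4.94 CPM, below its 273 and 86.3 CPM in other nuclei, with Adgre1 at 0 in both libraries. Mesothelial genes summed to 6.05 and 0 CPM, and lymphatic genes to 0 and 4.94 CPM. Fibroblast genes summed to 145 and 74.1 CPM, against 55.8 and 66.4 CPM in other nuclei, and endothelium genes to 175 and 302 CPM, against 163 and 260 CPM. These 2 lists are the genes of the fibroblast and endothelium gates, and barcodes that met a gate are not among other nuclei. The sums in other nuclei are thus lowered by the gates, and the 2 comparisons do not show enrichment in members. Schwann cell genes summed to 160 and 138 CPM, above 67.3 and 42.9 CPM in other nuclei, with Sox10 at 0.

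Tubule genes were present at a lower level than in other nuclei. Proximal tubule genes summed to 1113 and 2837 CPM in members against 4593 and 9034 CPM in other nuclei. This list holds Slc5a12, Slc13a3, Slc7a13 and Slc22a6, which the rule limits in members and not in other nuclei. Its lower sum thus follows in part from the rule. Genes of the thick ascending limb summed to 690 and 1478 CPM, against 2546 and 3178 CPM. Both sums were higher in losartan library 2, while distal and collecting duct genes summed to 287 and 208 CPM, against 1781 and 1552 CPM. For the thick limb cotransporter gene Slc12a1, 1 nucleus held 84 of the 147 UMIs in untreated library 2, and 2 nuclei held 104 and 71 of the 236 in losartan library 2. A few members thus carried a large tubule signal, and the part of mixed droplets in the values below was not tested beyond leaving out the barcodes that Scrublet marked.

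To ask which genes accompany the 5 rule genes, UMIs were summed over adipocyte, fibroblast-gated, endothelium-gated and other nuclei of the replicate 2 libraries and compared in 1 edgeR fit with library as a block. The fit leaves 3 residual degrees of freedom. A call is a Benjamini-Hochberg adjusted p under 0.05 over 14896 genes. Genes used by a gate were passed over, and the calls describe nuclei picked by their transcripts. The limit on proximal tubule UMIs held for the adipocyte, fibroblast and endothelium gates and not for other nuclei. Calls against other nuclei, above all the lower ones, depend in part on that limit. Against other nuclei, 1434 genes (9.63% of those tested) were called higher and 1999 (13.4%) lower. Against fibroblast-gated nuclei the counts were 1547 (10.4%) and 1999 (13.4%), and against endothelium-gated nuclei, with 3 or more of Pecam1, Emcn, Flt1, Ptprb and Cdh5, they were 1693 (11.4%) and 2037 (13.7%). The excess of lower calls was not found with DESeq2, which called 1666 higher and 1616 lower against other nuclei, 1746 and 1759 against the fibroblast gate, and 1820 and 1796 against the endothelium gate. The median log2 difference over all genes tested was -0.20, -0.22 and -0.20.

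Slc7a10, a transporter of small neutral amino acids known from white adipocytes, stood furthest above other nuclei. It was at 330 CPM in untreated library 2 and 277 CPM in losartan library 2, against 0.292 and 0.197 CPM in other nuclei (log2 difference 10.19, SE 0.384, edgeR adjusted p = 3.11e-10). Car3, an abundant carbonic anhydrase of fat, was at 4302 and 5259 CPM against 4.32 and 4.84 CPM (log2 9.97). Acvr1c, the activin-type receptor ALK7 that restrains lipolysis, was at 765 and 692 CPM against 0.796 and 0.617 CPM (log2 9.96). In all 3 genes both libraries lay far above both values of other nuclei.

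The rest of the 15 genes with the largest differences were Apol6 (log2 9.81), Ankef1 (9.60), Slc36a2 (9.5), Adrb3 (9.43), Nat8l (9.22), Ebf2 (9.22), Cidea (9.14), Mrap (9.02), Cdh9 (8.97), Myl1 (8.62), Ctcflos (8.40) and Lgals12 (8.31). Several have a known place in the adipocyte. Adrb3 encodes the adrenergic receptor that starts lipolysis, at 414 and 455 CPM. Mrap encodes the partner that carries the ACTH receptor to the cell surface, at 163 and 133 CPM. Slc36a2 is an amino acid transporter used as a marker of brown and beige fat, at 790 and 583 CPM. Lgals12 encodes a galectin on lipid droplets, at 451 and 217 CPM. Ctcflos is annotated antisense to Ctcfl. Slc7a10 overlaps Lrp3 on the opposite strand, Apol6 overlaps Mb, and Acvr1c, Ebf2 and Pparg each overlap a predicted gene. Whether counting used strand is not given here, so the values of these genes are uncertain by what their partners add.

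Positions below are on GRCm38 (mm10) with GENCODE M21. Slc7a10 lies on chromosome 7 from 35186385 to 35201114, Car3 on chromosome 3 from 14863512 to 14872523, and Acvr1c on chromosome 2 from 58267453 to 58357895. Adrb3 lies on chromosome 8 from 27225776 to 27250616. Of the rule genes, Adipoq lies on chromosome 16 from 23146536 to 23158028 and Cfd on chromosome 10 from 79890853 to 79892655. The values count UMIs over the whole gene.

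Tubule transporters were among the genes missing from the adipocyte nuclei. The rule limits proximal tubule UMIs in members, while other nuclei include proximal tubule nuclei. Lower calls of genes that go with the limited ones thus follow in part from the rule. Of the genes called lower than in other nuclei, the 5 with the largest fitted difference, Cdh6, Slc28a1, Haao, Slc5a11 and Pde9a, were all at 0 UMIs in both libraries. With a floor of 3 UMIs per library they were at least 1.71-fold (Cdh6) to 4.31-fold (Haao) lower. Haao, a kidney and liver enzyme of tryptophan breakdown, was at 40 and 63.9 CPM in other nuclei. Slc28a1 and Slc5a11, transporters of nucleosides and of inositol, were at 48.2 and 55.3 CPM and at 51.6 and 44 CPM there.

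Against the fibroblast gate the leading genes were Lgals12, Nat8l, Pnpla3, Ankef1 and Slc7a10. Lgals12 and Nat8l were at 0 UMIs in fibroblast-gated nuclei of both libraries, so they were at least 242-fold and at least 49.5-fold higher in adipocyte nuclei. Ankef1 was at 243 and 135 UMIs in adipocyte nuclei and 1 and 2 UMIs in fibroblast-gated nuclei. The 5 genes lowest against that gate, Adgrl3, Tmem119, Frmd5, Cntn1 and Lrfn2, were at 0 UMIs in adipocyte nuclei, at least 1.68-fold (Cntn1) to 5.38-fold (Adgrl3) lower. Against the endothelium gate Cib4, Myl1, Ctcflos, Slc36a2 and Ankef1 led, with Cib4 at 0 UMIs in endothelium-gated nuclei and at least 50.4-fold higher. Notch4, Pik3r6, Mapk12 and Adgrg6 were among the lowest, at 0 UMIs in adipocyte nuclei and at least 3.24-fold (Adgrg6) to 6.47-fold (Notch4) lower.

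**Figure D2:**
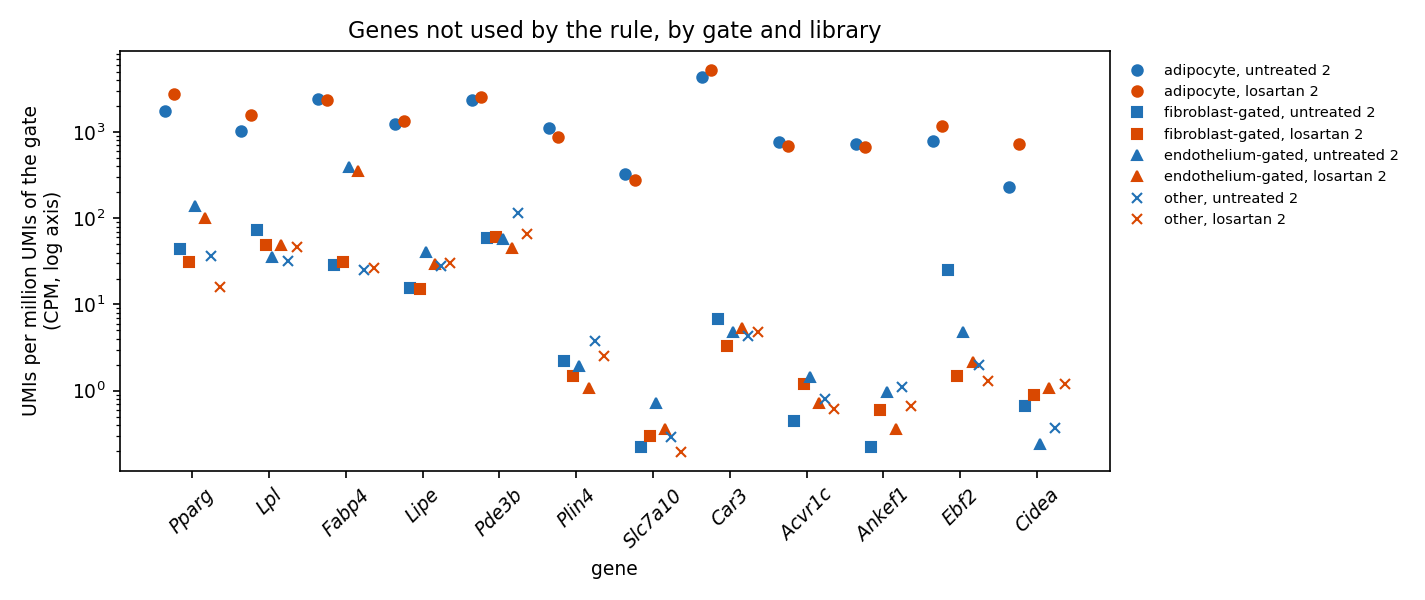
Level in CPM (log axis) of 12 genes that the rule did not use, in the adipocyte, fibroblast-gated, endothelium-gated and other nuclei of untreated library 2 (blue) and losartan library 2 (orange), 1 point per library and gate. In each of the 12 genes both adipocyte points lie above all 6 others; Fabp4 comes nearest in endothelium-gated nuclei.

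Transcription factors of adipocytes were high as a group. Of 17 tested, 12 were called higher than in other nuclei and 1 lower, with a median log2 difference of 1.41 beside -0.20 for all genes. Pparg had a log2 difference of 6.50 (SE 0.338, edgeR adjusted p = 7.97e-09). Ebf2, known for committing precursors to the brown lineage, was at 784 and 1176 CPM. Ebf1, an early B-cell factor needed for fat formation, was at 2547 and 3450 CPM against 147 and 137 CPM (log2 4.35). Cebpa was at 106 and 39.5 CPM against 2.94 and 2.29 CPM (log2 4.82). Mlxipl, the sugar-sensing factor ChREBP, was called higher by a small margin, with 599 and 633 CPM against 366 and 427 CPM (log2 0.60, edgeR adjusted p = 0.0184). Against the fibroblast gate 10 were higher and 2 lower, and against the endothelium gate 12 and 1.

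The lipid droplet coat had 8 of 13 tested genes called higher and 0 lower (median log2 2.21). Plin4, a droplet coat protein of white fat, was at 1122 and 870 CPM against 3.74 and 2.54 CPM (log2 8.28). Cav1, which forms the caveolae that stud the adipocyte membrane, was at 333 and 504 CPM against 14 and 14.8 CPM (log2 4.79). Plin2, the coat of small droplets in most cells, was at 185 CPM in untreated library 2 and 860 CPM in losartan library 2, against 43.7 and 38 CPM. Of these 3 genes Plin2 was the widest apart between the 2 libraries.

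Of 12 genes for fatty acid uptake, 7 were called higher and 0 lower (median log2 3.01). Fabp4, the fatty acid carrier of fat, was at 2405 and 2372 CPM against 25.1 and 26.8 CPM (log2 6.48), and it was also high in endothelium-gated nuclei (log2 2.66 against these). Lpl, which frees fatty acids from lipoproteins, was at 1035 and 1572 CPM against 32.3 and 46.5 CPM. Cd36, the membrane receptor for fatty acids, was at 1749 and 1829 CPM against 77.6 and 142 CPM. The adipocyte levels of Fabp4 and Cd36 lay close together in the 2 libraries.

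Of 23 tested genes of fatty acid and triglyceride synthesis, 14 were called higher and 1, the acetate-activating enzyme Acss2, lower (median log2 2.01). Acsl1, which activates long-chain fatty acids, was at 3189 and 4958 CPM against 142 and 202 CPM (log2 4.51). The acetyl-CoA carboxylases Acacb and Acaca had log2 differences of 5.38 and 3.83. Gpd1, which makes the glycerol backbone, was at 333 and 909 CPM against 37.6 and 51.3 CPM.

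Lipolysis and its control had the highest share of calls among the 15 lists against other nuclei, with 17 of 21 tested genes higher and 1, the phosphodiesterase Pde4d, lower (median log2 2.72). Prkar2b, a regulatory subunit of protein kinase A, was at 1981 and 2694 CPM against 14.4 and 8.27 CPM (log2 7.67). Pde3b, the phosphodiesterase through which insulin restrains lipolysis, was at 2348 and 2575 CPM against 115 and 65.4 CPM (log2 4.77). The lipases Lipe and Pnpla2 had log2 differences of 5.41 and 4.52. Tshr, the thyrotropin receptor, was at 169 and 98.9 CPM against 28.4 and 31.9 CPM (log2 2.15).

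Of 20 insulin signalling and glucose uptake genes, 12 were called higher and 3 lower (Slc2a1, Phldb2 and Enpp1), with a median log2 of 1.55. Sik2, a kinase of the fed state, was at 2644 and 3539 CPM (log2 4.09). Of 21 tested adipokines and secreted factors, 13 were called higher and 2 (Fst and Igfbp5) lower, with a median log2 of 2.89. Nrg4, a neuregulin secreted by fat, was at 2345 and 1908 CPM against 7.96 and 11.3 CPM (log2 7.76). Nnat, an imprinted gene found in adipocytes, was at 2069 and 801 CPM against 12.7 and 10.1 CPM (log2 6.84). Nnat and Nrg4 overlap Blcap and Fbxo22 on the opposite strand.

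Losartan acts on the renin-angiotensin system. Of 14 genes of this list tested, 3 were called higher than in other nuclei (Lnpep, Mme and the glucocorticoid receptor gene Nr3c1) and 2 lower, among them Enpep, with a median log2 of -0.20, as over all genes. Lnpep was at 420 and 297 CPM and Nr3c1 at 417 and 410 CPM, while the precursor and the receptor of the pathway were scarce. Agt, the angiotensin precursor that fat is known to secrete, had 3 UMIs in untreated library 2 and 0 UMIs in losartan library 2, which allows up to 3 UMIs. Agtr1a, the target of the drug, had 17 UMIs in 6 of 74 nuclei, 9 of them in 1 nucleus, and 1 UMI in 1 of 49. Against fibroblast-gated nuclei its log2 difference was -3.84 (edgeR adjusted p = 1.91e-05), and against other nuclei -0.87 (adjusted p = 0.277).

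Dystrophin-associated complex genes, which tie the cell skeleton to the matrix, had 9 of 16 tested members higher than in other nuclei and 2 lower. Against fibroblast-gated nuclei 4 were higher and 5 lower, Dmd among the lower. Sgcd, a sarcoglycan, was at 1331 and 1246 CPM against 61 and 28 CPM (log2 4.91), Sntb1 had log2 3.93 and Utrn log2 1.90. Of 20 genes of branched-chain and other amino acid breakdown, 9 were higher and 1 (Oxct1) lower than in other nuclei. Against fibroblast-gated and endothelium-gated nuclei 13 and 14 were higher and 0 lower.

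Matrix, inflammatory and TGF-beta genes did not follow the lipid lists. Of 27 adipocyte matrix genes, 9 were higher and 4 lower than in other nuclei, and against fibroblast-gated nuclei 4 were higher and 18 lower (median log2 -1.89). Lama4, a laminin chain of the basement membrane around adipocytes, was at 784 and 1028 CPM against 12.2 and 11.5 CPM (log2 6.21). Of 23 adipose inflammation genes, 3 were called higher, among them Cxcl14 and Il6ra, and 3 lower, and against the fibroblast gate 0 were higher and 10 lower. Of 27 TGF-beta and BMP genes, 4 were higher and 5 lower. Of 16 clock genes, 6 were higher (Per1, Per3, Cry2, Nr1d1, Nr1d2 and Dbp) and 2 lower.

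**Figure D3:**
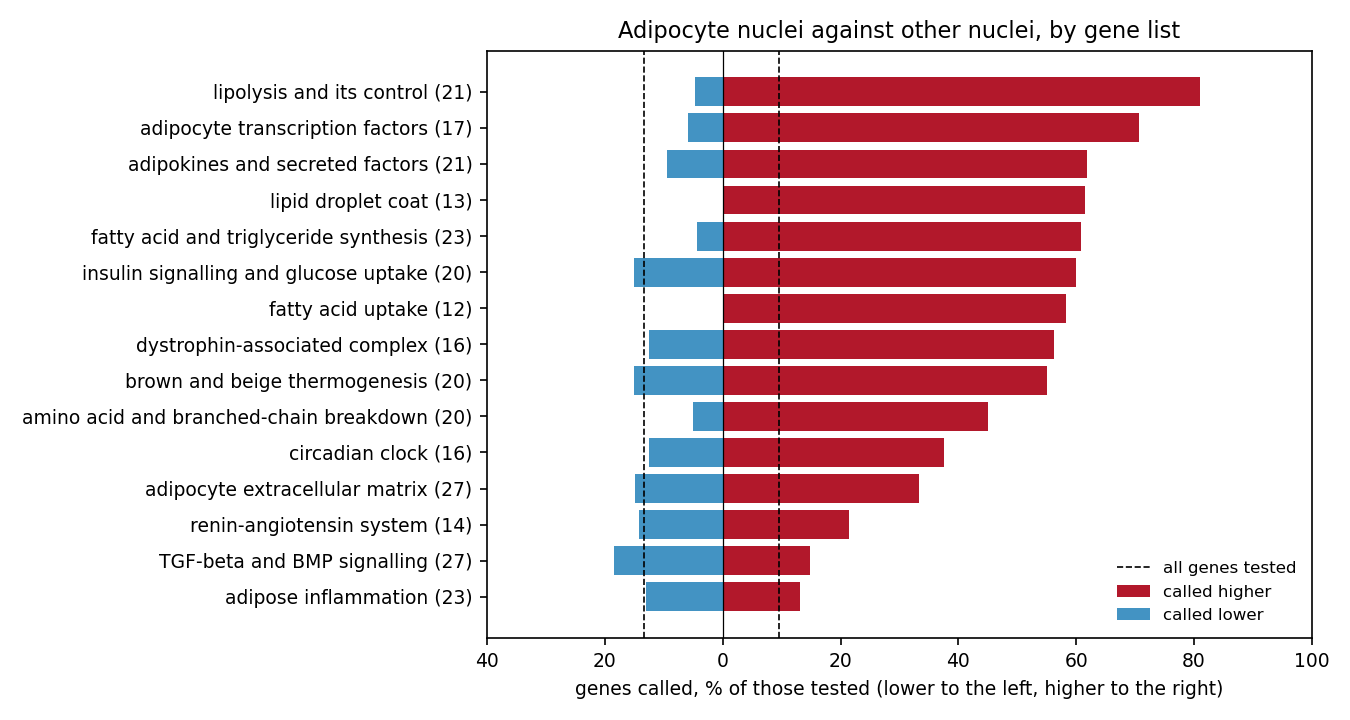
Percent of the tested genes of 15 lists (number tested in brackets) that were called higher (right, red) or lower (left, blue) in adipocyte nuclei than in other nuclei. Dashed lines stand at 9.63% and 13.4%, the shares over all 14896 genes; lipolysis stands at the top with 17 of 21 genes higher, and inflammation and TGF-beta genes at the bottom.

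The adipocyte nuclei were not alike. Of 20 tested genes of the brown and beige thermogenesis list, 11 were called higher than in other nuclei and 3 (Esrrg, Gk and Gatm) lower. Ucp1 itself was scarce, with 2 UMIs in 2 of 74 nuclei of untreated library 2 and 11 UMIs in 10 of 49 nuclei of losartan library 2. Cidea, a droplet protein of brown and beige fat, was at 233 CPM in 29 of 74 nuclei and 717 CPM in 34 of 49. Kcnk3, a potassium channel of thermogenic adipocytes, had 21 UMIs in 15 nuclei and 44 UMIs in 23 nuclei. Dio2, which activates thyroid hormone in brown fat, had 0 UMIs and 7 UMIs, and Elovl3 was at 0 in both. The same genes were scarce but present outside the members: Cidea had 14 UMIs in other nuclei of untreated library 2 and 49 in losartan library 2, and Ucp1 had 1 and 19.

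A split chosen after these values were seen calls a nucleus marked when it holds 2 or more of Ucp1, Cidea, Cox8b and Kcnk3 and unmarked when it holds 0. It is a range cut by detection and not a cell type: 22 nuclei in untreated library 2 and 16 in losartan library 2 held exactly 1 of the 4 genes. In untreated library 2, 13 of 74 nuclei were marked (17.6%, interval 9.7 to 28.2) and 39 unmarked. In losartan library 2, 23 of 49 were marked (46.9%, interval 32.5 to 61.7) and 10 unmarked. Thinned to 1800 UMIs per nucleus, with 0 nuclei left out, the expected marked shares were 7.07% and 27.2%. Both nuclei of untreated library 1 were unmarked. In other nuclei 0 to 5 barcodes a library held 2 or more of the 4 genes. These are 1 library a side, so the 2 shares describe those libraries.

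Among 2984 genes with enough UMIs, 92 (3.08%) were at least 2-fold higher and 114 (3.82%) at least 2-fold lower in marked than in unmarked nuclei of both libraries. No test was made, since the split uses the same nuclei. The genes named here were picked from these after their values were seen. Ppara, the receptor that turns on fatty acid oxidation, was 2.05-fold and 10.7-fold higher in untreated and losartan library 2. Pdk4, which spares glucose by closing pyruvate dehydrogenase, was 2.38-fold and 6.02-fold higher.

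Other genes high in marked nuclei of both libraries were Ppargc1b, a coactivator of mitochondrial genes (3.35-fold and 16-fold), and Pank1, the first enzyme of coenzyme A synthesis (3.83-fold and 9.16-fold). Esrrg, an orphan nuclear receptor of oxidative tissues, was 2.70-fold and 2.08-fold higher. On the low side stood Slc7a10, with 4 UMIs in marked and 81 in unmarked nuclei of untreated library 2 and 7 and 29 in losartan library 2. Slit3, a secreted guidance protein, had 12 and 279 UMIs and 33 and 42 UMIs. Robo2, one of its receptors, had 2 and 62 UMIs and 4 and 14 UMIs. Clca3a1 had 0 and 45 UMIs and 0 and 20 UMIs.

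Some genes known from adipocytes in general differed less. The marked to unmarked ratio of Acsl1 was 1.05 and 1.07, of Lpl 1.14 and 0.894, and of Pparg 1.20 and 1.54. Car3, at 0.726 and 0.587, was somewhat lower in marked nuclei. Cd36, at 1.10 and 3.26, and Ghr, at 0.563 and 1, had ratios that lay apart between the libraries. Nnat differed by library, with a ratio of 0.503 in untreated library 2 and 0.0202 in losartan library 2, where 4 of its UMIs lay in marked and 93 in unmarked nuclei. The tubule gene Slc12a1 had a ratio of 0.797 (0.354 to 1.63) in untreated library 2 and 0.0717 (0.0468 to 0.106) in losartan library 2, where the 2 nuclei named above hold most of its UMIs. Its part in the ratios was not tested.

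**Figure D4:**
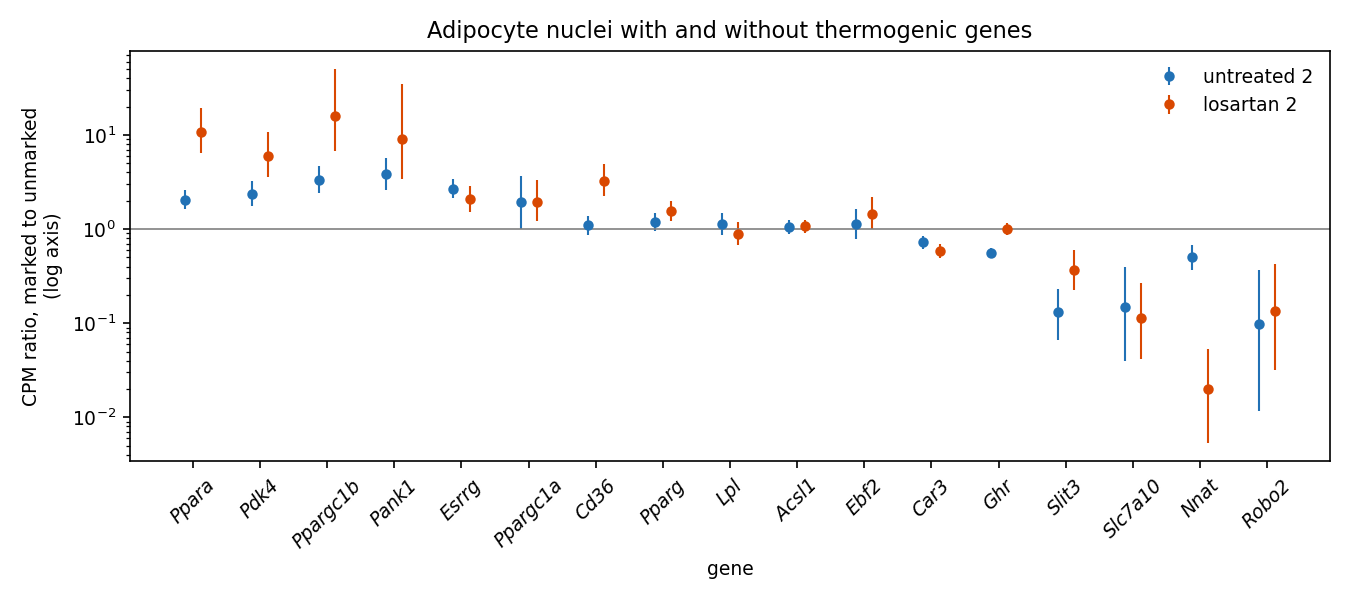
Ratio of CPM in marked to unmarked adipocyte nuclei (log axis) for 17 genes in untreated library 2 (blue) and losartan library 2 (orange), with 95% counting intervals that cover counting error only. Ppara to Esrrg lie above 1 in both libraries, and Slit3, Slc7a10, Nnat and Robo2 below 1 in both.

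The losartan comparison rests on 1 library a side, 49 nuclei against 74, so it compares 2 libraries and has no replicate check. Of 5162 genes with 20 or more UMIs in the adipocyte nuclei, 259 (5.02%) were at least 2-fold up in losartan library 2 and 388 (7.52%) at least 2-fold down. The 95% counting interval left out 1 for 219 and 228 of them. In other nuclei of the same libraries, 33 and 81 of these genes were past 2-fold, of which 11 and 28 were shared. The counts depend on depth, and in marked nuclei alone 180 were up and 118 down of 1671 genes. The ratios below have intervals that cover counting error only.

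Irs2, Pik3r1 and Foxo1 of the insulin list were higher in losartan library 2, and most of that list was within 2-fold. Irs2, the insulin receptor substrate whose transcript insulin represses, was at 84.7 CPM in untreated library 2 (19 of 74 nuclei) and 494 CPM in losartan library 2 (38 of 49), a ratio of 5.84 (3.81 to 9.22). Irf4, known in fat as a factor induced by fasting, was at 12.1 CPM in 4 nuclei and 138 CPM in 16 nuclei (ratio 11.4, 4 to 44.9). In other nuclei of replicate 2 the ratios were 1.03 for Irs2 and 0.171 for Irf4, and in those of replicate 1 they were 2.16 and 0.141. The list of 16 insulin genes with enough UMIs had 3 up, Irs2, Pik3r1 and Foxo1, and 1 down, Slc2a4 (interval not off 1), with a median log2 of 0.14 beside -0.06 for all genes.

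Pik3r1, the regulatory subunit of PI3-kinase, was at 408 and 1260 CPM (ratio 3.09, 2.5 to 3.83). Foxo1, the transcription factor that insulin keeps out of the nucleus, was at 284 and 905 CPM (ratio 3.18, 2.47 to 4.12). Other nuclei had ratios of 1.07 and 1.30 for these. Plin2 was at 185 and 860 CPM (ratio 4.66, 3.46 to 6.35) and 0.869 in other nuclei. The ratios of Irs2, Pik3r1, Foxo1 and Plin2 were between 2.29 and 3.92 within unmarked and within marked nuclei, except Irs2 in marked nuclei, where it had 0 and 43 UMIs.

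A few more genes were named after their values were seen. Fkbp5, a glucocorticoid-induced chaperone partner, was at 166 and 781 CPM (ratio 4.69, 3.43 to 6.5) and Zbtb16, also induced by glucocorticoids, at 699 and 2056 CPM (2.94, 2.5 to 3.47). Their ratios in other nuclei were 1.24 and 1.35. Tsc22d3 and Per1, which glucocorticoids also induce, had intervals that held 1 (ratios 1.42 and 1.30). Hk2, a hexokinase, was at 251 and 732 CPM (2.91, 2.21 to 3.86). Fasn, the fatty acid synthase that insulin induces, had 16 and 2 UMIs (0.204, 0.0228 to 0.869). That is under the minimum of 20 UMIs, so Fasn is not in the counts of genes past 2-fold.

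By the rule for named genes, the 8 largest ratios upward were those of Opcml, Lingo2, Irf4, Rgs2, Parm1, Ppp1r3b, Irs2 and Ecm1. Rgs2, a brake on G-protein signalling, was at 21.2 CPM in 5 nuclei and 173 CPM in 20 nuclei (ratio 8.17, 3.58 to 21.8). Some rested on single nuclei: all 22 UMIs of Opcml and 31 of the 33 of Lingo2 lay in 1 nucleus of losartan library 2, as did 12 of the 16 of Ecm1. Without the nucleus richest in each gene, the ratio of Ecm1 was 1.65 and that of Irs2 6.17.

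The 8 largest downward were those of Lcn2, Dkk2, Pcdh9, Rnf168, Dse, Lhfpl2, Tmem53 and Junos. Of the 111 UMIs of Dkk2 in untreated library 2, 104 lay in 1 nucleus, without which its ratio was 0.465. Lcn2, a kidney injury gene that fat also secretes, had 20 UMIs in 19 nuclei and 0 UMIs in losartan library 2, at least 4.08-fold lower. In other nuclei of untreated library 2 Lcn2 was at 97.5 CPM, above the 60.5 CPM of adipocyte nuclei. In those of losartan library 2 it was at 3.58 CPM, a ratio of 0.0367. The part of free RNA in the Lcn2 UMIs of adipocyte nuclei was not tested. Lhfpl2 had 53 UMIs in 17 nuclei and 4 UMIs in 4 nuclei (ratio 0.123, 0.0324 to 0.335).

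Of 3 genes that tubule cells are known for, named after their values were seen, Kap and Spp1 had close ratios in adipocyte and in other nuclei and Slc12a1 did not. Kap, a transcript of the proximal tubule, had a ratio of 2.71 (2.29 to 3.22) in adipocyte nuclei and 2.79 in other nuclei, at 666 and 1804 CPM against 940 and 2625 CPM. Spp1, the injury gene osteopontin, had 0.285 (0.173 to 0.451) and 0.281. Slc12a1 had 2.62 (2.13 to 3.25) and 1.27, but few nuclei held most of its UMIs. In untreated library 2, 84 of 147 lay in 1 adipocyte nucleus. In losartan library 2, 104 and 71 of 236 lay in 2 nuclei. The part of these nuclei in the Slc12a1 ratio was not tested. Ghr, the growth hormone receptor, was at 9693 CPM in untreated library 2 and 5877 CPM in losartan library 2 (0.606, 0.567 to 0.648), with 1.74 in other nuclei. Angptl4, an inhibitor of lipoprotein lipase, had 0.549 (0.376 to 0.788) and 1.46 in other nuclei.

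Of the rule genes, whose levels in members depend on the rule itself, Adipoq had a ratio of 1.01, Plin1 0.86, Cidec 0.957 and Lep 0.516, from 19 and 6 UMIs. Among fat genes that the rule did not use, Fabp4 had 0.986 (0.879 to 1.11). Pparg was at 1.57 (1.39 to 1.76), Acsl1 at 1.55 (1.42 to 1.7) and Lpl at 1.52 (1.3 to 1.78).

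**Figure D5:**
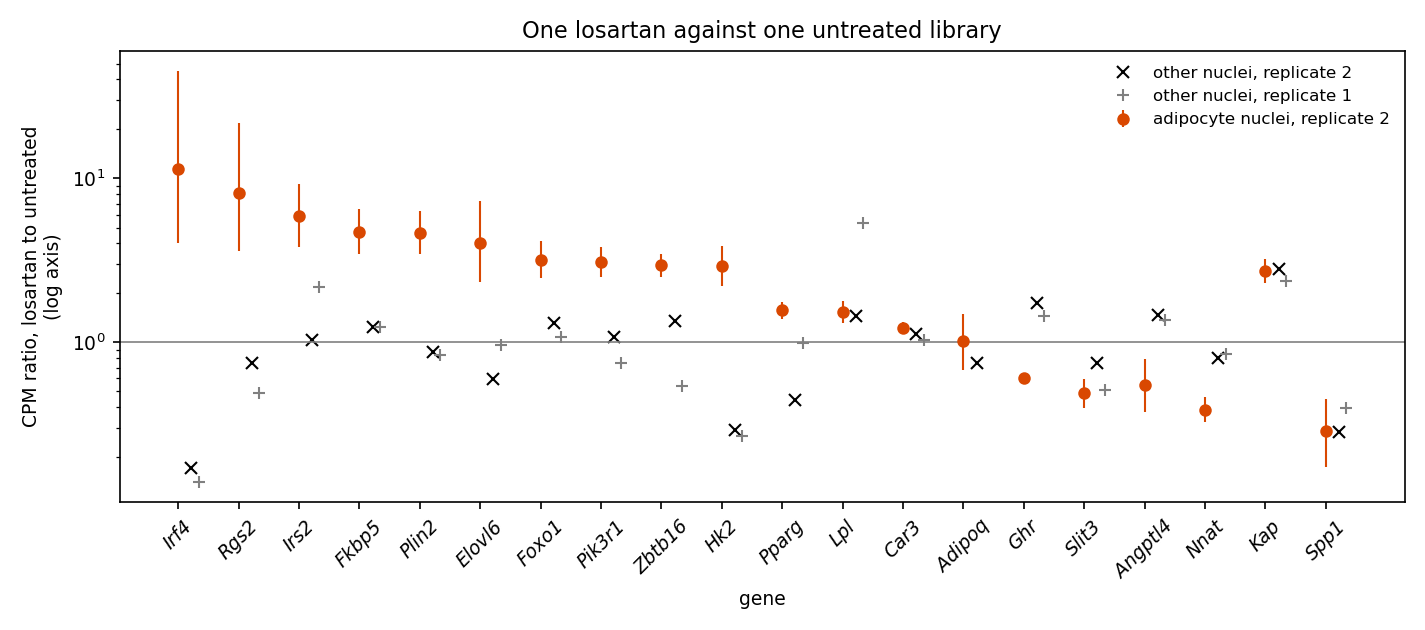
Ratio of CPM in losartan to untreated library 2 (log axis) for 20 genes in adipocyte nuclei, with 95% counting intervals (1 library a side), beside the ratio in other nuclei of replicate 2 (crosses) and replicate 1 (plus signs). Irf4 to Hk2 lie above 1 in adipocyte nuclei and apart from the other nuclei, while Kap and Spp1 lie on the crosses.

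The share of marked nuclei differed between the 2 libraries, and several ratios changed sides within the classes. Of the thermogenesis list, 5 of 14 genes were up (Cidea, Ppargc1a, Kcnk3, Pdk4 and Gk) and 0 down, with a median log2 of 0.76. Cidea, which helps to define the classes, had a ratio of 3.08 (2.32 to 4.11) over all members and 3.26 in other nuclei. Over all members Ppara had a ratio of 1.75, but 0.306 (0.168 to 0.517) in unmarked and 1.60 (1.31 to 1.98) in marked nuclei. Gpd1 had 2.73 over all members, 0.505 in unmarked and 2.51 in marked nuclei, and Pdk4 had 2.11, 0.608 and 1.54. Slit3 went from 0.487 over all to 0.589 and 1.67, and Nnat from 0.387 to 1.08 and 0.0434. Unmarked nuclei of losartan library 2 number only 10. Among them are the nuclei with 104 and 71 UMIs of Slc12a1, neither of which Scrublet marked. Their part in the unmarked ratios was not tested.

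The other lists are to be read beside the 5.02% up and 7.52% down of all genes. The branched-chain and amino acid list had 0 of 19 genes up and 5 down (Bcat2, Mccc1, Mccc2, Auh and Aldh6a1), with a median log2 of -0.29. Of these, Bcat2 had an interval that held 1. The secreted factors had 2 up and 3 down of 11 (median -0.86), with Lcn2 among those down. The synthesis list had 6 of 18 up, of which Elovl5 had an interval that held 1. Among them was Elovl6, an elongase of fatty acids at 57.5 and 232 CPM (ratio 4.04, 2.33 to 7.29), and 1 gene was down (Pnpla3). Renin-angiotensin genes had 0 up and 0 down of 6, which leaves out Agtr1a and Agt with under 20 UMIs. Clock genes had 0 up and 1 down (Dbp, with an interval that held 1) of 12. Dystrophin-associated genes had 2 down of 14, both with intervals that held 1, and 1 up, Sgcz, which had 18 of its 25 UMIs in 1 nucleus of losartan library 2 and a ratio of 2.30 (0.629 to 9.2) without it. In this list Utrn was at 1821 and 1048 CPM (0.575, 0.49 to 0.674) where other nuclei had 0.71. Inflammation genes had 0 up and 2 down of 11, among them Tlr4.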

How the data were processed

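Single-nucleus RNA was measured in 4 mouse kidney libraries. The deposited matrices hold raw UMI counts per gene and barcode, written by Cell Ranger 5.0.0 per the file headers. Per the submitters' processing notes the build is mm10 and Bowtie 0.12.2 was used, with no role given. Each matrix lists 27998 genes, of which 27645 were placed with GENCODE M21 by identifier. The members and lists were chosen with earlier results of these data known. Adipocyte, fibroblast-gated, endothelium-gated and other nuclei were told apart by detected genes, and 208 barcodes that met both the fibroblast and the endothelium gate were left out. Gate sums of replicate 2 were compared with edgeR 4.0.16 (R 4.3.3; TMM, filterByExpr, quasi-likelihood, library as block), checked on simulated data; DESeq2 1.42.0 was an alternative. Doublets were scored with Scrublet in scanpy 1.11.5, with the highest scores taken at 0.8% per 1000 barcodes where its own threshold marked under 0.5%. Intervals are 95% exact intervals (Clopper-Pearson for shares, conditional binomial for ratios, scipy 1.17.1). A count of 0 is read as at most 3 counts. These intervals and this floor cover counting error only.

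Named genes are the 15 most raised and 5 most lowered against other nuclei and 5 each way against the other gates. Raised genes had 20 or more UMIs and were higher in both libraries, and lowered genes had neither limit. Also named are 8 each way between libraries with an interval off 1 and up to 4 per list with most UMIs. Ucp1, Lep, Agt, Agtr1a, Pparg and the rule genes are named always. Predicted genes, clones and gate genes were passed over. Genes named as the called members of a list, Ghr, Kap, Angptl4, Slit3, Fkbp5, Zbtb16, Tsc22d3, Per1, Hk2 and Fasn, and all genes named for the marked split, were chosen after their values were seen. The 15 gene lists are those counted in the text. Alternatives were other marker minimums, Cfd or doublets left out, at least 1000 UMIs, other filters, scalings and no block. A few genes that these rules name are not reported here.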

Additional observations from a re-analysis of the deposited data

How the results depend on the processing

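The difference in the share of adipocyte nuclei kept its sign under 5 other settings of the gate, at -0.115 to -0.19 percentage points, and the replicate block, which pairs libraries by number, gave -0.15 (exact paired permutation, p = 0.5). Leaving out 1 library at a time gave -0.527 to 0.227. Calls against other, fibroblast-gated and endothelium-gated nuclei stayed within 1.5 times of the counts in the text under DESeq2, DESeq2's size factors, no filter, no library block and the other gates, at 2818 to 3801, 3120 to 3898 and 3220 to 3990 genes; a fibroblast gate at 3 or more genes, chosen after seeing the data, gave 3613. Without 1 of the replicate 2 libraries no residual degrees of freedom remained for a test. Of 217 called comparisons of named genes, 3 lost significance with 3 or more markers, 3 without doublets and 14 without the library block. A minimum of 1000 UMIs changed no value, since every barcode held at least 1839. The number of genes past 2-fold between the 2 losartan and untreated libraries, 647, moved most with the minimum depth: it was 1504 at 10 or more UMIs, 253 at 40 or more and 298 in marked nuclei alone. Of named ratios with an interval off 1, 15 moved outside that interval with 3 or more markers, 4 with Cfd left out and 3 without doublets, and with 3 or more markers that of Ppargc1b turned to 0.98. In marked nuclei alone 28 and in unmarked nuclei alone 24 moved outside it without turning. Splits chosen after seeing the data turned the ratio in unmarked nuclei of Ppargc1b (0.258), Ebf1 (0.707), Plin4 (1.26), Acacb (0.566), Gpd1 (0.505), Nnat (1.08), Ppara (0.306), Pdk4 (0.608), Lama4 (0.947) and Adora1 (1.15), and in marked nuclei of Slit3 (1.67), Prkar2b (0.838), Nr1d2 (0.941) and Igf1 (0.939). Depth limits genes with few UMIs, such as Ucp1, Lep and Agt.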
